A study of Mus musculus with 26 samples.

Results

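Microglia, the resident macrophages of the brain, were compared at E13.5 between embryos of dams that had received Poly(I:C) and embryos of dams that had received saline. Poly(I:C) is a synthetic double-stranded RNA that imitates a viral infection, and its injection into the dam is termed maternal immune activation (MIA). Injections were intraperitoneal and given at E12.5, so the tissue was taken about a day later. All 6 libraries came from wild-type C57Bl/6N embryos of mixed sex, and the labels give their stage as E13. The prospective somatosensory cortex was freed of meninges, pooled from several embryos and dissociated, and cells positive for Cd11b and Cx3cr1 with low Cd45 were sorted and captured in droplets, where a unique molecular identifier (UMI) tags each captured RNA molecule. The comparison held 3 saline and 3 MIA libraries of the 26 samples of the series, and the pool behind a library, not the single embryo, is the unit of replication. Nothing in the labels says whether the pools of a group came from separate dams, so a p-value here measures the spread between these pools. In sums over all cells of a library, fewer cells of a type and less RNA per cell cannot be told apart.

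Barcodes were kept when they held at least 500 genes, at most 20% mitochondrial UMIs and at least 3 UMIs of Csf1r, C1qa, C1qb and Cx3cr1 together. This rule kept 12762 cells at E13.5, of 65126 kept in all microglia libraries of the series. The saline libraries held 1150, 1779 and 3211 kept cells. The MIA libraries held 272, 359 and 5991, so that MIA 1 and MIA 2 were the smallest libraries and MIA 3 the largest. Summed UMIs followed, from 6079597 in MIA 2 to 104346248 in MIA 3, and median UMIs per cell ranged from 8184 to 25630.5.

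The cells carried the markers that define microglia. P2ry12, a purinergic receptor of ramified microglia, lay between 803 and 1049 counts per 1000000 UMIs of the library (CPM) in all 6 libraries. Fcrls, an Fc receptor-like gene typical of microglia, lay between 1274 and 1644 CPM. The genes that chose the cells are given only as a description: C1qb, a complement subunit, lay between 3963 and 4722 CPM and Csf1r, the receptor on which microglia depend, between 978 and 1481 CPM. Summed markers of neutrophils did not exceed 0.638 CPM, those of pericytes and fibroblasts 2.33 CPM and those of lymphocytes 4.79 CPM, while markers of neurons summed to between 37.2 and 120 CPM. Markers of neural progenitors summed to between 224 and 304 CPM. Between 3.86% (saline 3) and 8.46% (MIA 1) of kept cells had at least 3 UMIs of selected neuron markers.

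Some libraries stood apart or shared barcodes. MIA 1 and saline 1 had 67 barcodes in common, which is 24.6% of the cells of MIA 1, and in 66 of these the MIA 1 copy was the larger, with a median of 48402 UMIs against 1097.5 in saline 1. MIA 2 and saline 2 had 32 barcodes in common, 8.91% of the cells of MIA 2, all larger in MIA 2 (median 57155 UMIs against 941.5). MIA 3 and saline 3 had 7 in common and the other pairs between 0 and 4, so most shared barcodes lay between libraries of the same number. The labels do not say what a number marks, and whether these are the same cells was not tested. Results were therefore repeated without the smaller copy of each shared barcode. Summed erythroid markers ranged from 26.1 CPM in MIA 1 to 6192 CPM in MIA 2, and summed border macrophage markers were highest in MIA 1 and saline 1 (1725 and 1599 CPM, against 290 to 761 CPM in the other libraries).

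Double-stranded RNA is sensed by Tlr3 in endosomes and by the helicases Ddx58, Ifih1 and Dhx58 in the cytosol. Type I interferon then acts through Ifnar1 and Ifnar2, Jak1 and Tyk2, and a complex that holds Stat2 and Irf9 binds a response element upstream of interferon-stimulated genes, whose products block viral replication. A core of that element is GAAA, any pair of bases (NN) and GAAA in a row. These letters were sought on both strands, overlapping matches included, in RefSeq promoters of build GRCm38.p6, from 250 bases before to 50 after the start. They were found for 20 of the 37 interferon-stimulated genes that had a promoter in the table (54.1%), and for 1079 of all 27025 genes in it (3.99%). The stretches below lie upstream of 5 genes whose levels are described next, read along the strand of the gene, with 1 match in each in capitals. The stretches of Isg15 and Bst2 also hold matches that overlap it and stand in lower case. They cover chr4:156200861-156200910 (minus strand) for Isg15, chr12:26456543-26456592 (minus) for Rsad2, chr19:34583353-34583402 (plus) for Ifit3, chr8:71537567-71537616 (minus) for Bst2 and chr11:82951927-82951976 (plus) for Slfn5.
Isg15: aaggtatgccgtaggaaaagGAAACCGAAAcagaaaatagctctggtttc
Rsad2: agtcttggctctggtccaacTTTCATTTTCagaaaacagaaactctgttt
Ifit3: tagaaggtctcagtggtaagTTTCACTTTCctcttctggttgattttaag
Bst2: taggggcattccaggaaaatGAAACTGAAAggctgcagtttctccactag
Slfn5: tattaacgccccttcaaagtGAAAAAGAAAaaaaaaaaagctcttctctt
In Rsad2 and Ifit3 the match is on the opposite strand and appears as its reverse complement. The promoter of Irf7, described below, held no match in this window. A match describes the letters and no site of binding.

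No gene passed an adjusted p of 0.05 between MIA and saline at E13.5. Of 12730 genes tested with the quasi-likelihood test of edgeR, 0 were called (0%), 104 had an unadjusted p under 0.05 (0.817%), of which 78 had higher fitted levels after MIA (0.613%) and 26 lower (0.204%), and every tested gene named below has an adjusted p of 0.9999 in this test. DESeq2 called 2 genes, Grcc10 among them, both higher after MIA, with 96 genes at an unadjusted p under 0.05. A single library decided further calls: without MIA 3, 6 genes were called, among them Grcc10, Isoc2a, Nutf2, Gm49207 and Hmga1b, and without saline 1 only Nme2 was. The number of genes at an unadjusted p under 0.05 was 722 without MIA 3 and 208 without saline 1, 69 without saline 3, and 257 when replicate number was blocked on. Without the smaller copies of shared barcodes the count was 0, with 106 at an unadjusted p under 0.05.

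Of the pathway lists, the interferon-stimulated genes had the largest median difference. The lists were chosen with earlier results of these data known, and no set test was run. The rank and the counts of members are thus a description only. All 47 tested members, of 50 listed, had fitted levels above saline, with a median log2 fold change of 0.52 and a range of 0.03 to 2.09, where 6495 of all 12730 genes (51%) were above 0 with a median of 0.00. None passed the adjusted threshold, and 6 of 47 had an unadjusted p under 0.05, where the share over all genes was 0.613% in this direction. That count was 34 without MIA 3, 21 without saline 1, 5 without saline 3, 2 without saline 2 or without MIA 1, 1 without MIA 2, and 25 when replicate number was blocked on. Oas3 and Ifi44 fell below the filter on low counts, and 1 listed symbol was not in the gene list of the files.

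Isg15, a ubiquitin-like protein conjugated to viral and host proteins (ENSMUSG00000035692, chromosome 4, 156199424 to 156200818, mm10), had levels of 19.9, 7.43 and 10.4 CPM in saline 1 to 3. After MIA it had 45.6, 22.7 and 15.2 CPM. MIA 1 and MIA 2 stood above every saline library and MIA 3 lay between saline 1 and saline 3, so the groups overlapped. The log2 fold change of Isg15 was 1.12 ± 0.43 (SE, n = 3 libraries per group, edgeR adjusted p 0.9999), and 0.54 without MIA 1. With replicate number blocked on it was 1.06 ± 0.16 (edgeR adjusted p 0.121), and the MIA library was above the saline library of each number.

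Irf7, the transcription factor that amplifies interferon production (chromosome 7, 141262706 to 141266481), had 5.83, 3.37 and 4.05 CPM after saline. After MIA it had 12.1, 12.8 and 4.72 CPM, a log2 fold change of 1.08 ± 0.36 (SE). Here too MIA 1 and MIA 2 were the highest libraries and MIA 3 was below saline 1. Rsad2, the antiviral enzyme viperin, had 1.52, 0.522 and 1.89 CPM after saline and 11.0, 6.58 and 0.987 CPM after MIA (log2 fold change 2.09 ± 0.78, with 1.21 without MIA 1 and 0.12 in cells with an Xist or Tsix UMI). Usp18, which removes Isg15 from proteins and damps Ifnar2 signalling, had 2.32, 1.16 and 2.07 CPM after saline and 6.63, 6.91 and 1.59 CPM after MIA (1.30 ± 0.52). For both genes MIA 3 was within the range of the saline libraries while MIA 1 and MIA 2 were above it.

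The same order of libraries ran through the list. MIA 1 was above all 3 saline libraries for 39 of 47 members (24.5% of all genes tested) and MIA 2 for 42 of 47 (40.2% of all genes), whereas MIA 3 was above them for 3 of 47 (24.8% of all genes). Only Ifi35 and Tor3a, named after their values were seen, had all MIA above all saline libraries, which is 2 of 47, beside 2.06% of all genes. Their log2 fold changes were 0.20 ± 0.10 and 0.24 ± 0.11 (SE). Summed over the 49 listed members in the files, levels were 2399, 1758 and 1528 CPM after saline and 2624, 2584 and 1670 CPM after MIA, so that saline 1 stood near MIA 1 and MIA 2.

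**Figure D1:**
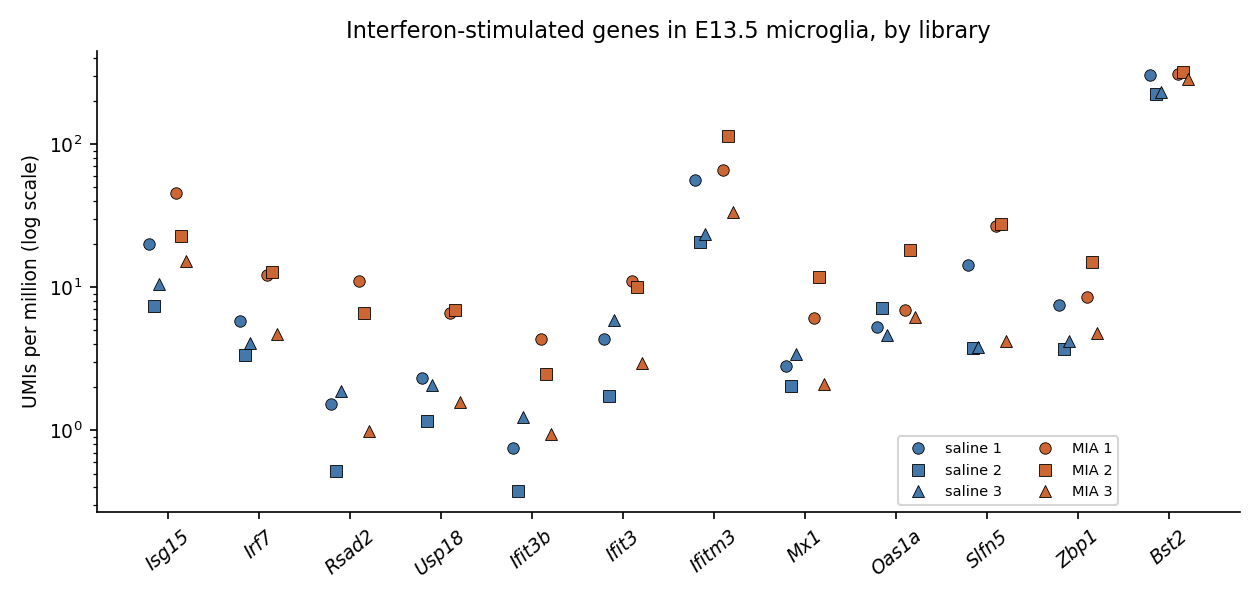
Levels of 12 interferon-stimulated genes, in CPM on a log axis, in each E13.5 library (blue, saline; orange, MIA; circles, squares and triangles, libraries 1, 2 and 3). MIA 1 and MIA 2 lie above the saline libraries for Isg15, Irf7, Rsad2 and Usp18, and MIA 3 lies within or near their range.

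Further members followed at other levels; Ifit3, Ifit3b, Ifitm3, Slfn5 and Bst2 were named after their values were seen. Ifitm3, a membrane protein that blocks viral entry, had 56.2, 20.5 and 23.3 CPM after saline and 65.7, 114 and 33.4 CPM after MIA (log2 fold change 1.05 ± 0.45, SE). Ifit3b, of the Ifit family that binds viral RNA, had 0.758, 0.377 and 1.25 CPM after saline and 4.37, 2.47 and 0.939 CPM after MIA (1.51 ± 0.62). Slfn5, a schlafen family member, had 14.2, 3.77 and 3.82 CPM after saline and 26.8, 27.6 and 4.18 CPM after MIA (1.36 ± 0.71). Ifit3, of the Ifit family like Ifit3b, had 4.36, 1.74 and 5.90 CPM after saline and 11.003, 10.03 and 2.93 CPM after MIA (0.86 ± 0.54). Without 1 library the log2 fold change was 0.58 (MIA 2) to 1.61 (saline 1) for Ifitm3, 0.81 for Ifit3b without MIA 1, 2.21 for Slfn5 without saline 1, and 0.45 (MIA 1) to 1.36 (MIA 3) for Ifit3. Saline 1 was the highest saline library for Ifitm3 and Slfn5 but not for Ifit3b or Ifit3. The abundant Bst2, which tethers budding virus to the cell, varied less, with 301, 223 and 232 CPM after saline and 306, 319 and 283 CPM after MIA (0.26 ± 0.14). Reads of Ifit3 and Ifit3b can be shared, since 16.7% of the 60-base words at the 3' end of Ifit3 also occur in Ifit3b.

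Markers of border macrophages, the macrophages of the meninges and vessels, moved in part with these levels. The paper also reports such markers in a cluster of embryonic microglia, so they do not set border macrophages apart from microglia here. Mrc1, the mannose receptor, had 377, 160 and 126 CPM after saline and 384, 242 and 141 CPM after MIA. Lyve1, a hyaluronan receptor of border macrophages, had 153, 4.87 and 1.11 CPM after saline and 111, 27.1 and 2.63 CPM after MIA. The higher libraries were thus saline 1, MIA 1 and, less so, MIA 2. When sums were restricted to cells with no Ms4a7 or Mrc1 UMI, which left 106 to 3420 cells per library, 30 of 44 tested interferon-stimulated genes were above 0, with a median log2 fold change of 0.11. In these cells the log2 fold change was 1.00 for Isg15 and 0.83 for Irf7, but 0.11 for Ifitm3 and 0.20 for Usp18. The filter depends on the depth of a cell as well as on its type. It left 106 of 272 cells in MIA 1 (median 25630.5 UMIs before the filter) and 1965 of 3211 in saline 3 (median 8941). The part of border macrophages, or of microglia that carry their markers, in the interferon-stimulated levels was therefore not tested.

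Other properties of the libraries were set beside the list in the same way. With every library thinned to the smallest total, all 44 tested members were above 0 with a median of 0.48, and without the smaller copies of shared barcodes all 47 were, with a median of 0.53. In cells with an Xist or Tsix UMI, 40 of 43 members were above 0 (median 0.27), and in cells without, 47 of 47 (median 0.57). Leaving out 1 library moved the median between 0.30 and 0.88, the latter without saline 1, and it was 0.83 without MIA 3. Members above 0 were 42 of 47 without saline 3, 43 of 47 without MIA 1 and 45 of 48 without MIA 2, and 47 of 47 in the other such fits. In cells with no Mki67 or Top2a UMI, 41 of 45 were above 0 (median 0.45). The part of the erythroid RNA of MIA 2 in these values was not tested.

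Isg15 was detected in a minority of cells in every library. With no thinning, Isg15 was detected in 25.7% of the cells of MIA 1 (95% Clopper-Pearson interval 20.6 to 31.4%), 11.1% of MIA 2 (8.08 to 14.9%) and 9.75% of MIA 3 (9.01 to 10.5%). In saline 1 to 3 it was detected in 13.6% (11.6 to 15.7%), 7.70% (6.50 to 9.04%) and 6.23% (5.42 to 7.12%) of cells, and these intervals cover counting error only. In the neuron-like cells that the marker rule left out, 2 of 449 had an Isg15 UMI (0.445%), at median depths of 2132.5 to 5508.5 UMIs, and 0 of 449 had an Ifit3 UMI, for which a floor of 3 counts allows a share of cells with a UMI of up to 0.668%.

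Depth per cell differed between libraries, so cells of at least 5000 UMIs were also thinned to 5000 and the others left out. This left out 49 of 272 cells of MIA 1, 140 of 359 of MIA 2 and 1299 of 3211 of saline 3. The share of cells with an Isg15 UMI was then 5.68, 3.14 and 3.47% after saline and 11.2, 6.93 and 4.45% after MIA. The groups differed by 3.44 percentage points, with MIA 3 inside the range of saline and a difference of 1.59 points without MIA 1 and 4.98 without MIA 3 (two-sided exact permutation p = 0.20, adjusted p = 0.50 over 8 shares, and 0.10 is the smallest p that 3 against 3 libraries allow). For Ifit3 the shares were 1.52, 0.740 and 0.685% after saline and 3.82, 3.01 and 0.789% after MIA (exact p = 0.20).

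Cells were also described by their Isg15 count, with no thinning, so that the classes depend on the depth of a cell. Cells with 5 or more Isg15 UMIs were 1.39% (16 cells), 0.337% (6) and 0.561% (18) of saline 1 to 3. They were 3.68% (10 cells), 2.79% (10) and 0.801% (48) of MIA 1 to 3. In such cells the other interferon-stimulated genes summed to between 7059 and 8238 CPM in all 6 libraries, while in cells with no Isg15 UMI they summed to between 1412 and 2046 CPM. Cells with no Isg15 UMI held between 46.2% and 83.5% of the UMIs of the other interferon-stimulated genes in a library, and cells with 5 or more held between 1.78% and 20.6%. The share of cells with 5 or more in MIA 3 lay within the range of the saline libraries. The 1% of cells richest in Ifit3 held between 57.4% and 92.2% of the Ifit3 UMIs of an MIA library and between 68.5% and 100% of those of a saline library. This share depends on how many cells had any Ifit3 UMI, only 32 of 3211 in saline 3, so it does not compare the groups.

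**Figure D2:**
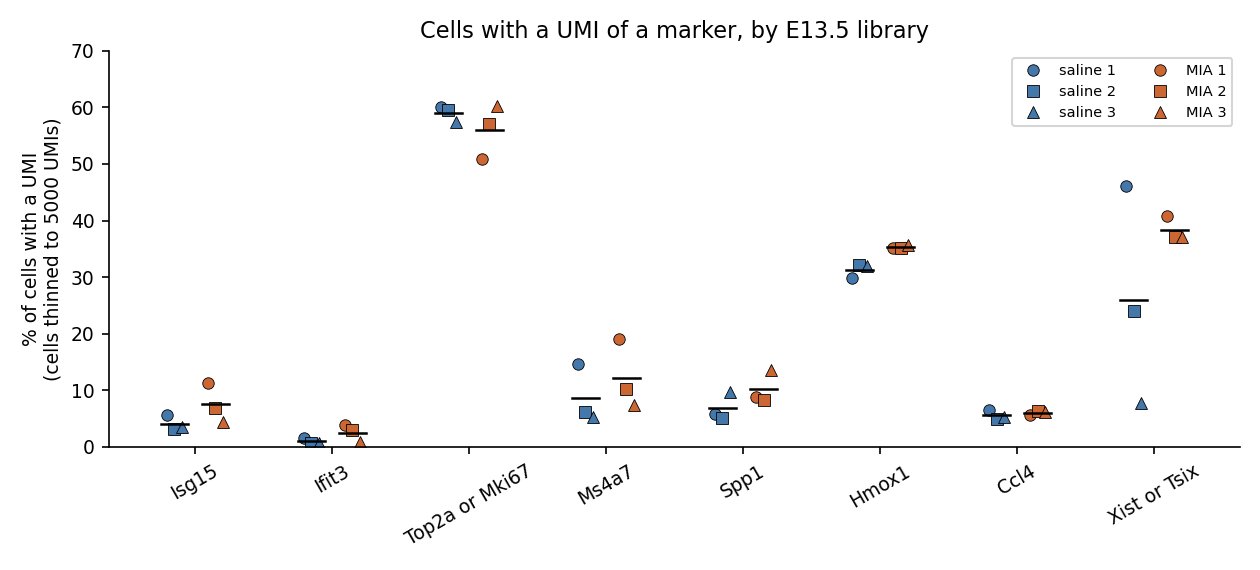
Percent of cells with at least 1 UMI of a marker in each E13.5 library, with cells of at least 5000 UMIs thinned to 5000 and the others left out. Points show libraries (blue for saline, orange for MIA) and bars the mean of 3 libraries. Hmox1 is the only marker of the 8 whose groups do not overlap.

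Of the 8 shares compared, only that of Hmox1, the oxygenase that degrades heme, did not overlap between groups in thinned cells. It was detected in 29.8, 32.1 and 31.9% of thinned cells after saline and 35.1, 35.1 and 35.7% after MIA (difference 4.03 points, exact p = 0.10, adjusted p = 0.50). With no thinning the groups overlapped, since MIA 2 (54.3%) was below saline 2 (54.5%), and the difference was 7.82 points (exact p = 0.20). Of the 449 neuron-like cells 7.35% had an Hmox1 UMI with no thinning. In sums its level overlapped, with 251, 308 and 277 CPM after saline and 323, 284 and 321 CPM after MIA (log2 fold change 0.14 ± 0.14, SE). Cells with a Top2a or Mki67 UMI, genes of dividing cells, made up 59.97, 59.6 and 57.4% after saline and 50.9, 57.1 and 60.2% after MIA (exact p = 0.50). Spp1, or osteopontin, was detected in 5.89, 5.10 and 9.75% of cells after saline and 8.88, 8.24 and 13.7% after MIA (exact p = 0.30). Ms4a7, a marker of border macrophages, was detected in 14.6, 6.11 and 5.37% after saline and 19.0, 10.3 and 7.38% after MIA (exact p = 0.50), and Ccl4 in 6.48, 4.99 and 5.33% after saline and 5.62, 6.30 and 6.11% after MIA (exact p = 0.50).

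Sensors and receptors upstream of the interferon-stimulated genes differed little. Tlr3, the endosomal receptor of Poly(I:C), had 16.3, 11.9 and 14.9 CPM after saline and 15.1, 20.9 and 12.1 CPM after MIA, and the groups overlapped (log2 fold change 0.10 ± 0.19, SE). Ifnar1 had 54.6, 45.2 and 44.9 CPM after saline and 44.4, 49.3 and 45.3 CPM after MIA (-0.06 ± 0.11). Ifnar2 had 106, 81.1 and 77.0 CPM after saline and 120, 111 and 87.8 CPM after MIA (0.26 ± 0.15), with MIA 3 below saline 1, and the value was 0.14 without MIA 1 and 0.40 without saline 1. Both receptor chains were thus detected at these depths in every library.

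Of the 16 sensors and adaptors tested, 10 were above 0 with a median log2 fold change of 0.07 and none had an unadjusted p under 0.05. Over all genes tested, 0.817% had an unadjusted p under 0.05 by edgeR. The highest was Zbp1, a sensor of left-handed nucleic acid that is itself interferon-stimulated and stands in both lists, with 7.54, 3.68 and 4.19 CPM after saline and 8.60, 15.0 and 4.81 CPM after MIA (0.79 ± 0.39, and 0.36 without MIA 2). Dhx58, a helicase that tunes the cytosolic RNA sensors, had 7.20, 5.16 and 4.85 CPM after saline and 9.03, 10.0 and 4.84 CPM after MIA (0.39 ± 0.27, with 0.22 without MIA 2, 0.24 without MIA 1 and 0.72 without MIA 3). Of 15 genes listed with the interferon receptors, Jak and Stat genes, 9 were above 0 with a median of 0.06. The list ranged from -0.33 to 1.30. Of its members, 1 had an unadjusted p under 0.05 and was higher after MIA, beside 0.613% of all genes. Jak2, a kinase of the interferon gamma receptor, had 12.8, 11.7 and 13.7 CPM after saline and 8.18, 12.501 and 10.04 CPM after MIA (-0.33 ± 0.15).

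Interferon genes themselves were at or near the floor. Of 21 interferon genes in the files, 19 had no UMI in any of the 6 libraries, which allows up to 0.0135 CPM each over the libraries together, and Ifnk and Ifnz had 23 UMIs between them, 7 after saline and 16 after MIA. These genes were looked up after other values were seen.

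Cytokines and chemokines, the secreted signals of activated macrophages, gave no call, and neither did any other of the 12730 genes tested. Of 24 cytokine and NF-kB feedback genes tested, of 29 listed, 15 were above 0 with a median of 0.07. Tnf had 5.59, 4.47 and 5.23 CPM after saline and 2.82, 6.58 and 8.76 CPM after MIA (log2 fold change 0.34 ± 0.31, SE). Il1b had 4.41, 2.79 and 3.66 CPM after saline and 5.78, 2.63 and 4.99 CPM after MIA (0.35 ± 0.29, with 0.20 without MIA 1 or without saline 2, 0.23 without MIA 3 and 0.59 without MIA 2). Without MIA 3 the log2 fold change of Tnf was -0.18. For both genes, the MIA libraries reached beyond the saline range on both sides. Il6 was below the filter, with 59 UMIs in all 6 libraries, and Il10 had none.

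Of 15 chemokines tested, of 22 listed, 10 were above 0 with a median of 0.14, which was -0.08 without MIA 1. Ccl4, which attracts monocytes and T cells, was high only in MIA 1, with 39.5, 42.2 and 30.7 CPM after saline and 119, 34.9 and 33.9 CPM after MIA (log2 fold change 0.73 ± 0.43, and -0.15 without MIA 1). A single cell held 611 of the 844 Ccl4 UMIs of MIA 1. Ccl12, a monocyte attractant, had 79.7, 63.8 and 92.1 CPM after saline and 89.4, 108 and 94.1 CPM after MIA (0.29 ± 0.14, with 0.17 without saline 2 and 0.44 without saline 3). Cxcl10, an interferon-induced ligand of Cxcr3, had 2.65, 1.86 and 3.52 CPM after saline and 1.69, 6.09 and 4.43 CPM after MIA (0.59 ± 0.38, with 0.36 without MIA 2, 0.38 without saline 2 and 0.89 without MIA 1). Unlike for Isg15, MIA 1 was the lowest library for Cxcl10 and lay within the saline range for Ccl12.

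**Figure D3:**
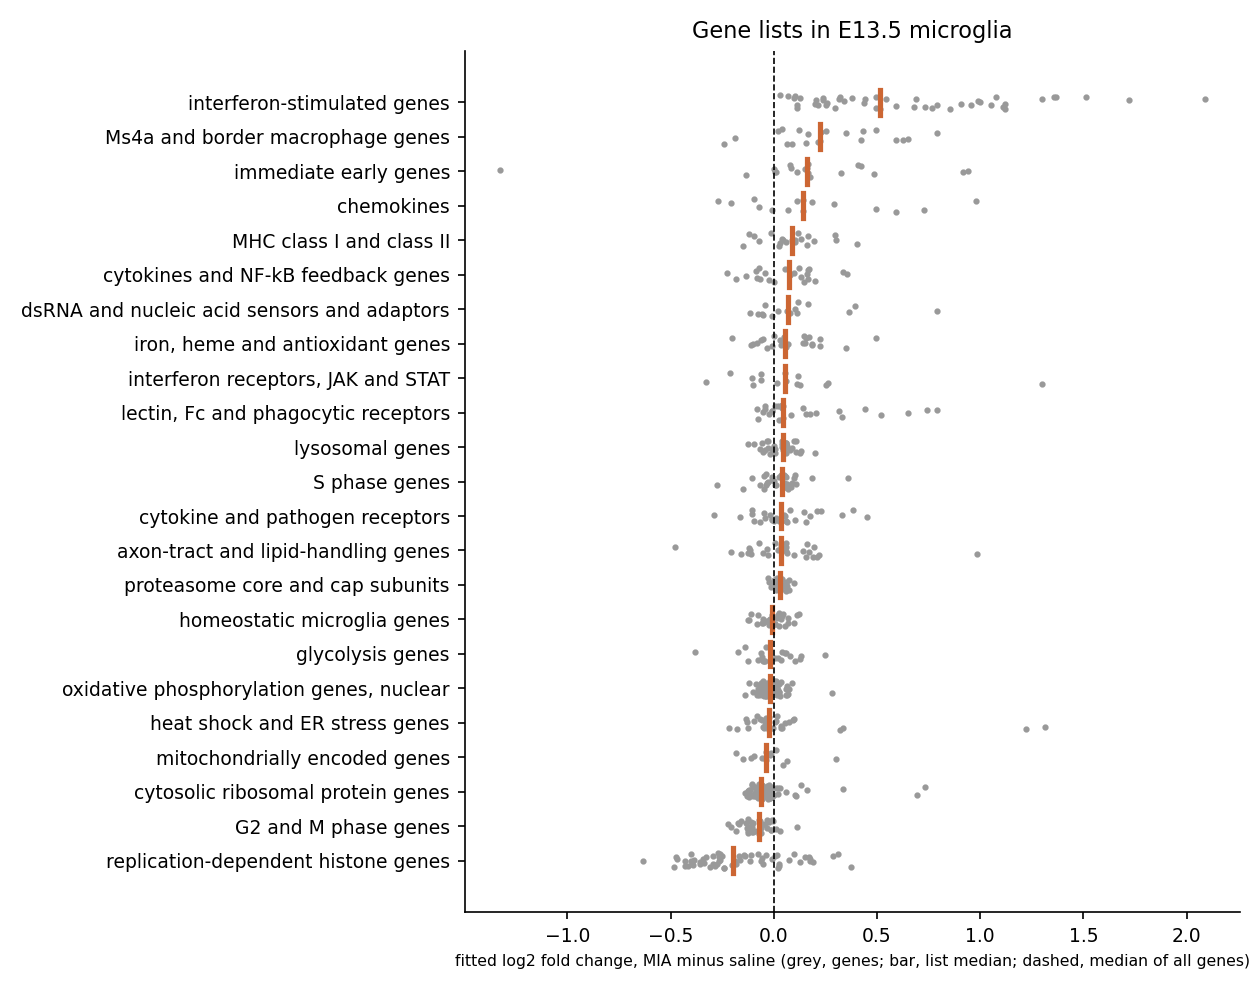
Fitted log2 fold change, MIA minus saline, of every tested gene (grey points) in each pathway list at E13.5, with the list median (orange bar) and the median over all genes tested (dashed line). The interferon-stimulated genes have the highest median, 0.52, and the replication-dependent histone genes the lowest, -0.20. The lists were chosen with earlier results of these data known.

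Lists that describe the microglial state lay close to all genes. Of 31 homeostatic genes 15 were above 0 with a median log2 fold change of -0.01, and their range, from -0.13 to 0.12, was narrow. P2ry12 had 910, 891 and 840 CPM after saline and 1049, 1022 and 803 CPM after MIA (0.11 ± 0.13, SE, with 0.02 without MIA 1 and 0.21 without MIA 3). Siglech, a sialic acid receptor of microglia, had 330, 338 and 341 CPM after saline and 330, 325 and 287 CPM after MIA (-0.11 ± 0.12, with -0.17 without MIA 1 and -0.07 without MIA 3). Neither gene separated the groups.

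Of 29 axon-tract and lipid-handling genes 18 were above 0 with a median of 0.04. Spp1 had 56.4, 51.3 and 153 CPM after saline and 124, 60.9 and 325 CPM after MIA (0.99 ± 0.59), with saline 3 above 2 MIA libraries. The log2 fold change of Spp1 was 0.06 without MIA 3 and 1.70 without saline 3. Apoe, the lipid carrier, had 8086, 6531 and 6347 CPM after saline and 8954, 7891 and 7234 CPM after MIA (0.19 ± 0.13, with 0.09 without MIA 1 and 0.29 without saline 1). Of 21 MHC class I and class II genes 16 were above 0 with a median of 0.09. Cd74, the class II invariant chain, had 6.21, 4.82 and 4.81 CPM after saline and 6.07, 7.90 and 6.98 CPM after MIA (0.40 ± 0.17). H2-T23, a non-classical class I gene, had 28.6, 33.3 and 36.1 CPM after saline and 38.1, 47.7 and 36.7 CPM after MIA (0.30 ± 0.13, and 0.20 without saline 1). Every MIA library was above every saline library for H2-T23, as for 2.06% of all genes.

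Replication-dependent histone genes, transcribed in S phase, had the lowest median, -0.20, with 16 of 62 above 0. Hist1h4d had 427, 222 and 374 CPM after saline and 199, 244 and 221 CPM after MIA (log2 fold change -0.63 ± 0.21, SE, edgeR adjusted p 0.9999). MIA 2 was above saline 2, so the groups overlapped. Hist1h4h had 58.7, 45.0 and 71.5 CPM after saline and 36.1, 49.5 and 41.8 CPM after MIA (-0.47 ± 0.17, and -0.29 without saline 3), and 53.7% of the words at its 3' end occur in other genes, mostly H4 copies. The median was -0.04 without saline 3, and -0.01 with 28 of 59 above 0 in cells with no Ms4a7 or Mrc1 UMI. These transcripts largely lack the poly(A) tail on which the capture relies.

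Other genes of division had medians nearer to 0. Of 40 G2 and M phase genes 3 were above 0, with a median log2 fold change of -0.07 and a range of -0.22 to 0.11. Without MIA 1, 26 of 40 were above 0 (median 0.01), and in cells with no Ms4a7 or Mrc1 UMI 32 of 40 were (median 0.08). Mki67 had 502, 442 and 387 CPM after saline and 313, 460 and 380 CPM after MIA (-0.22 ± 0.15, with -0.11 without MIA 1 and -0.14 without saline 1). Of 35 S phase genes 23 were above 0 with a median of 0.04. E2f8, a repressor of the cell cycle, had 29.8, 28.5 and 26.2 CPM after saline and 22.6, 25.3 and 22.6 CPM after MIA (-0.27 ± 0.10), with every MIA library below every saline library, where 1.68% of all genes were. Pcna, the replication clamp, had 150, 124 and 122 CPM after saline and 190, 216 and 110 CPM after MIA (0.36 ± 0.21, with 0.20 without MIA 2 and 0.59 without MIA 3).

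Immediate early genes, which are also induced by tissue dissociation, had 17 of 19 tested members above 0 with a median of 0.16. Without MIA 3, 8 of 19 were above 0 with a median of -0.03, and without saline 3 the median was 0.32. Egr1 had 2.84, 3.66 and 6.46 CPM after saline and 7.34, 5.76 and 11.1 CPM after MIA (log2 fold change 0.94 ± 0.34, SE), with saline 3 above MIA 2, and the value was 0.55 without MIA 3. Jund had 75.3, 92.8 and 91.0 CPM after saline and 97.2, 121 and 110 CPM after MIA (0.33 ± 0.13), all MIA above all saline, as for 2.06% of all genes. Hspa1a, an inducible heat shock protein, was high in MIA 1, with 4.60, 4.32 and 2.78 CPM after saline and 18.6, 5.76 and 4.14 CPM after MIA (1.22 ± 0.51, and 0.28 without MIA 1).

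The cytokine and pathogen receptors had 16 of 28 members above 0 (median log2 fold change 0.04), the lectin, Fc and phagocytic receptors 20 of 28 (0.04) and the lysosomal genes 23 of 34 (0.04). The iron, heme and antioxidant genes had 18 of 26 (0.06), the heat shock and ER stress genes 14 of 33 (-0.03), the glycolysis genes 11 of 22 (-0.02) and the mitochondrially encoded genes 4 of 13 (-0.04). The Ms4a and border macrophage genes stood further from all genes, with 19 of 21 above 0 (0.23), and this median was between -0.17 and 0.74 when 1 library was left out. None of these lists held a call, as no gene tested did in the main fit.

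Housekeeping genes differed between the MIA libraries as well. MIA 3 was the highest of the 6 libraries for 28 of 34 proteasome genes, 53 of 79 nuclear genes of oxidative phosphorylation and 45 of 83 ribosomal protein genes, where it was the highest for 2429 of all 12730 genes. MIA 2 was the lowest of the 6 for 62 of 83 ribosomal protein genes and 60 of 79 oxidative phosphorylation genes, where it was the lowest for 1853 of all genes. Of the proteasome genes 31 of 34 were above 0, with a median of 0.03 and a range of -0.03 to 0.10, and of the oxidative phosphorylation genes 24 of 79 (median -0.02). The proteasome median was -0.10 without MIA 3, -0.05 without saline 1 and 0.11 without MIA 2, and that of the oxidative phosphorylation genes was 0.09 without MIA 2 and 0.03 without saline 3. Mitochondrially encoded transcripts summed to 22714 CPM in MIA 3, the lowest library, and to 50295 CPM in MIA 1, the highest.

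Of the 12 genes with the smallest p in the upward direction, Irf7 is described above with the interferon-stimulated genes. Grcc10 (chromosome 6, 124739183 to 124741374) had 55.02, 54.3 and 50.8 CPM after saline and 102, 115 and 68.6 CPM after MIA. All MIA libraries were above all saline libraries, as for 2.06% of all genes, and the log2 fold change was 0.81 ± 0.16 (SE, edgeR adjusted p 0.9999, DESeq2 adjusted p 0.0028). Nme2, a nucleoside diphosphate kinase (chromosome 11, 93949814 to 93956259), had 47.5, 19.5 and 22.7 CPM after saline and 85.6, 77.5 and 69.4 CPM after MIA (1.38 ± 0.28, and 1.47 with an edgeR adjusted p of 0.0075 when replicate number was blocked on), again with all MIA libraries above all saline libraries.

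Counts of both genes are uncertain, because each overlaps another annotated gene on its strand and shares sequence with others. Of the 60-base words in the last 400 bases of their transcripts, 59.3% for Grcc10 and 98.5% for Nme2 occur in transcripts of other genes, Gm45234 for the former and Gm20390 among those of the latter. At E15.5, Nme2 had 11.2, 13.1 and 2.83 CPM after saline and 15.0, 40.9 and 4.35 CPM after MIA, so the groups overlapped (log2 fold change 1.14 ± 0.83, SE). Nutf2, a carrier of Ran into the nucleus, had 19.1, 13.3 and 13.3 CPM after saline and 38.0, 43.4 and 14.8 CPM after MIA (1.01 ± 0.33), and 43.1% of its words occur elsewhere, mostly in Nutf2 pseudogenes.

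**Figure D4:**
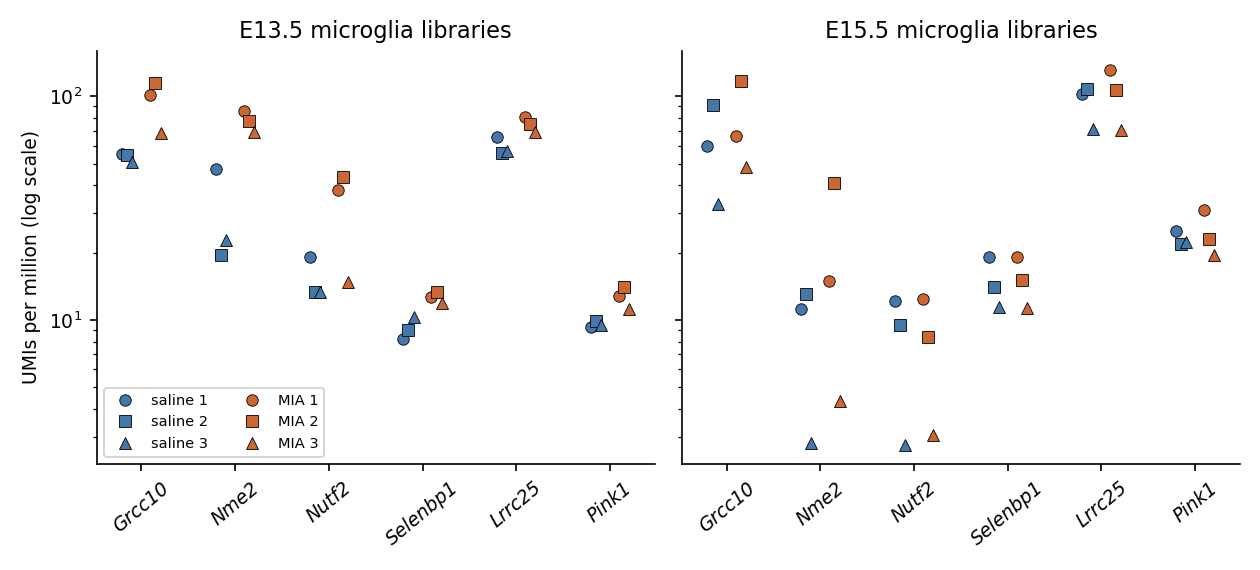
Levels of 6 of the genes with the smallest p at E13.5, in CPM on a log axis, in the E13.5 libraries (left) and the E15.5 libraries (right), with symbols by library number. For Nme2 the E13.5 groups are apart and the E15.5 libraries spread from 2.83 to 40.9 CPM.

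Others of the 12 had log2 fold changes of 1.27 ± 0.44 (SE) for Bdh1, a ketone body enzyme, and 1.13 ± 0.38 for Rnasek (0.67 without MIA 3). Both rest on few molecules, with 3 and 5 UMIs of Bdh1 and 7 and 12 of Rnasek in MIA 1 and MIA 2, and 100% of the words at the 3' end of Rnasek occur in Gm21988. Lrrc25, a myeloid receptor, had 65.4, 55.9 and 56.8 CPM after saline and 81.0, 75.2 and 69.0 CPM after MIA (log2 fold change 0.33 ± 0.11, SE). Pink1, the mitochondrial kinase of mitophagy, had 9.34, 9.84 and 9.46 CPM after saline and 12.8, 13.98 and 11.2 CPM after MIA (0.38 ± 0.13). Selenbp1, which oxidises methanethiol, had 8.20, 8.99 and 10.3 CPM after saline and 12.7, 13.3 and 11.9 CPM after MIA (0.44 ± 0.14). All MIA libraries were above all saline libraries for these 3 genes, as for 262 of all 12730 genes (2.06%). Since they were chosen by small p in the same fit, this separation adds no separate evidence. Rpl13a, of the large ribosomal subunit, had 336, 413 and 389 CPM after saline and 630, 942 and 360 CPM after MIA (0.73 ± 0.27, and 0.41 without MIA 2), whereas 13 of 83 ribosomal protein genes were above 0 with a median of -0.06. Of the words at the 3' end of Rpl13a, 28.4% occur in other genes.

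In the downward direction, 2 of the 12 genes are on the Y chromosome. Kdm5d, a histone demethylase, had 10.3, 9.98 and 12.3 CPM after saline and 9.03, 7.57 and 6.62 CPM after MIA (log2 fold change -0.53 ± 0.17, SE). Ddx3y, an RNA helicase, had 21.8, 26.2 and 30.3 CPM after saline and 21.2, 19.9 and 18.5 CPM after MIA (-0.41 ± 0.15). Cells with a UMI of Xist or Tsix, transcripts of X inactivation, made up 46.1, 24.1 and 7.80% of thinned cells after saline and 40.9, 37.1 and 37.1% after MIA (exact p = 0.40), and were rare in saline 3. In cells without such a UMI the log2 fold changes were -0.18 and -0.06.

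Cndp1, a dipeptidase, had 9.29, 1.92 and 2.32 CPM after saline and 0.423, 0.329 and 1.55 CPM after MIA (-2.02 ± 0.68). The value for Cndp1 was -1.04 without saline 1 and -3.52 without MIA 3, and its levels in MIA 1 and MIA 2 rest on few molecules. Hira, a chaperone of the histone variant H3.3, had 23.1, 22.6 and 21.1 CPM after saline and 18.5, 19.6 and 17.1 CPM after MIA (-0.29 ± 0.10). Both genes had every MIA library below every saline library, which 214 of all genes had. Since they were chosen by small p in the same fit, this adds no separate evidence.

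The effect of MIA at E13.5 was set beside that at E15.5 and P14, in libraries that share no samples with it. These also came from wild-type C57Bl/6N mice after injection at E12.5. There were 6 libraries at E15.5, and 4 saline and 2 MIA libraries at P14. The labels give P14 saline libraries 3F and 3M as female and male of the same replicate, and they were tested as separate libraries. At E15.5, 5 of 49 tested interferon-stimulated genes were above 0 with a median log2 fold change of -0.17, where 49.3% of all genes were above 0. At P14 16 of 46 were, with a median of -0.09, where 49.7% of all genes were. At neither age did edgeR call any gene (0% of 13699 and of 13390). Isg15 at E15.5 had 14.9, 82.4 and 24.0 CPM after saline and 43.3, 31.1 and 35.4 CPM after MIA, with saline 2 the highest library of that age. In the test of the difference between ages, 48 of 49 members had a higher fold change at E13.5 (41.5% of all genes did), but 0 of 14081 genes passed the adjusted threshold of edgeR (0%), 0 by DESeq2, and 48 had an unadjusted p under 0.05 (0.341%), none of them interferon-stimulated. For Isg15 the difference between ages was 1.24 on the log2 scale and for Irf7 1.09 (edgeR adjusted p 0.9999 for both). The ages are thus not shown to differ.

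**Figure D5:**
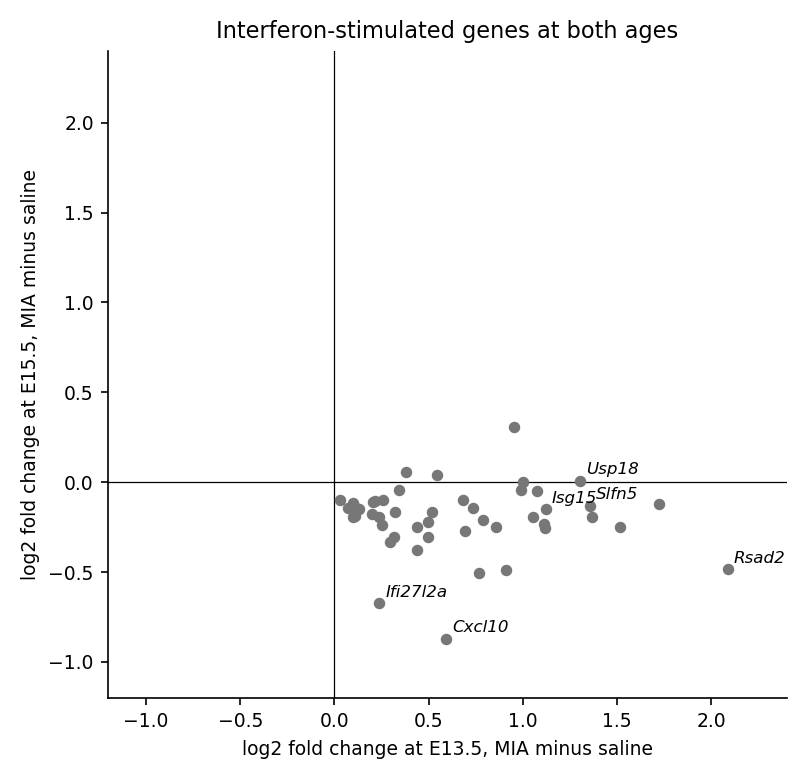
Log2 fold change, MIA minus saline, of the 47 interferon-stimulated genes tested at both ages, at E13.5 (x axis) and at E15.5 (y axis), 1 point per gene. All points lie to the right of 0 at E13.5 and most lie below 0 at E15.5.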

How the data were processed

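As deposited by the authors, the files hold UMI counts of each gene in each barcode, not normalized, from Cell Ranger 3.1.0 (per the submitters' processing notes) with mm10 as the reference. Cells were kept by the rule given above and counts were summed per library. Genes were tested with edgeR 4.0.16 in R 4.3.3 (TMM, filterByExpr by group, quasi-likelihood test, Benjamini-Hochberg adjustment over all genes tested, threshold 0.05), and DESeq2 1.42.0 was the alternative. The methods of the study add sex, set per cell from Xist and Tsix, and sequencing batch as terms. Here neither was a term, and cells with and without such a UMI were summed apart as alternatives. The labels used here give no batch per library, so its part was not tested. The members and the gene lists were chosen with earlier results of these data known. Genes named were the 12 per direction with the smallest p, up to 4 per list with the smallest p, Csf1r, C1qa, C1qb, Cx3cr1, Tlr3, Ifnar1 and Ifnar2, and other-cell markers above 50 CPM. Where others are named, their values had been seen. Some items that the rule picks are not reported here. CPM is counts per 1000000 UMIs of a library's kept cells and is not corrected for length, so levels are compared within a gene. Fitted log2 fold changes use the prior count of edgeR. The SE printed with them is the absolute log2 fold change over the square root of the F statistic, not a fitted standard error. By DESeq2 the SE was larger for Isg15 (0.61 against 0.43) and smaller for Irf7 (0.32 against 0.36). For shares of cells, cells of at least 5000 UMIs were thinned to 5000, those below were left out, and libraries were permuted exactly (two-sided). Doublets were left in and removed by Scrublet in scanpy 1.11.5 as an alternative. The testing path was tested on simulated data. Of 31053 gene identifiers, 31011 matched the GENCODE annotation, from which the gene coordinates come. Depth ranged from 6079597 to 104346248 UMIs per library, so low genes are least certain in MIA 1 and MIA 2. Nuclei libraries were not used here.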

Additional observations from a re-analysis of the deposited data

How the results depend on the processing

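Against 0 calls at E13.5, the DESeq2 Wald test called 2 genes, the fit with a replicate block called 1 (Nme2), and leaving out 1 library gave 0 to 6; the other alternatives gave 0. Libraries of the same number correlated at 0.264, 0.0389 and 0.29 in their deviations from the group means. Saline 2 and MIA 2 each correlated better with a library of another number, but same-numbered libraries shared the most barcodes (67, 32 and 7). Whether the numbers mark pairs is thus not settled, and the main fit does not pair them. With the block the SE of Isg15 was 0.16 instead of 0.43, and that of Ms4a7 0.12 instead of 0.63. The block changed no other call at E13.5, and at E15.5 and in the difference between ages the count was 0 with and without it. At P14, DESeq2 called 1 gene where edgeR called 0 (415 at an unadjusted p under 0.05).

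With 1 library left out, the median log2 fold change ranged from -0.0809 to 0.339 for chemokines, 0.0126 to 0.107 for cytokine genes, -0.0287 to 0.137 for axon-tract genes, -0.336 to -0.039 for histone genes, 0.0098 to 0.159 for iron and heme genes, and -0.00691 to 0.0628 for lysosomal genes. The sign of the small median also turned for S phase genes (-0.0146 to 0.064), homeostatic genes (-0.0455 to 0.0384), ribosomal protein genes (-0.164 to 0.0444), RNA sensors (-0.00365 to 0.184), cytokine and pathogen receptors (-0.0129 to 0.0766), glycolysis genes (-0.136 to 0.0607), heat shock genes (-0.0822 to 0.0224) and mitochondrially encoded genes (-0.296 to 0.23). The change ranged from -0.0748 to 0.29 for Tlr3, -0.11 to 0.0154 for Ifnar1, -0.15 to 1.04 for Ccl4, -0.18 to 0.62 for Tnf, -0.23 to 1.61 for Ms4a7 and -0.24 to 0.81 for Mrc1. The direction also turned for Ccl4 without neuron-marker cells (-0.29), for Tnf in thinned libraries (-0.0808), for Ddx3y (0.10) and Hspa1a (-0.33) in cells with Xist or Tsix, for Ccdc163 (0.0408), Ifit3 (-0.0745), Tlr3 (-0.0624) and P2ry12 (-0.11) in cells without Mki67 or Top2a, and for Ifit3 (-0.27), Ccl4 (-0.73), Cxcl10 (-0.12) and Mki67 (0.0397) in cells without Ms4a7 or Mrc1. The causes were not tested.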
